A study of Mus musculus with 48 samples.

Results

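The mitotic apparatus of a macrophage cell line was followed here through 42 genes for cyclins, mitotic kinases, kinetochores, spindle motors and cytokinesis. They were taken by symbol from the deposited table of read counts, where all 42 were found among 49568 genes, and all 42 passed the filter on low counts in every comparison. The cells were RAW264.7, a mouse macrophage line, which limits the data to 1 transformed line that divides in culture. PBS-treated cells were compared with cells given 1 of 3 synthetic 15-mers at 100 μg/ml, with IFN-γ at 5 ng/ml, or with both, giving 8 groups (PBS, 65-79*LE, 65-79*SE, 65-79*PE, IFN-γ, and each peptide with IFN-γ). The peptides cover residues 65 to 79 of the HLA-DRβ chain of DRB1*0301 (LE, a lupus risk allele), DRB1*0401 (SE, a rheumatoid arthritis risk allele) and DRB1*0402 (PE, a related allele that carries protection). Treatment lasted 72 h in all groups, with the medium renewed at 48 h. Each group had 3 libraries that the labels mark with letters, 24 in all, and each library is named below by its group and its replicate number from 1 to 3.

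A dividing cell builds its mitotic proteins late in the cycle. Cyclin A2 (Ccna2) and the B cyclins (Ccnb1, Ccnb2) activate CDK1, and the kinases PLK1, Aurora A and Aurora B drive spindle assembly. Kinetochores (KNL1, NDC80, NUF2 and the CENP proteins) attach chromosomes to microtubules, and the checkpoint kinases BUB1, BUBR1 (Bub1b) and TTK hold cells until attachment is complete. CDC20 then activates the anaphase-promoting complex (APC/C), UBE2C supplies it with ubiquitin, and separase (Espl1) parts the sister chromatids before anillin (Anln), ECT2 and PRC1 organise cytokinesis. Transcripts of these genes peak in G2 and M phase, and many of their promoters hold CCAAT boxes, bound by NF-Y, and a cell cycle homology region (CHR), bound by the MuvB complex with B-MYB and FOXM1. Interferon-γ is known to slow the proliferation of many cell types and to activate macrophages.

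Promoter windows of 300 bases, from 250 before to 50 after the annotated start, were read from RefSeq for build GRCm38.p6, and 38 windows matched 36 of the 42 genes. The CHR letters TTTGAA, on either strand, occurred in 31 of the 38 windows (81.6%) and in 17.9% of the 32851 windows of all genes. A CCAAT pentamer on either strand occurred in 29 of the 38 windows (76.3%) against 37.4% of all windows, and at least 2 of them in 20 windows (52.6%) against 11.7%. Both motifs were present in 26 windows (68.4%) and in 6.95% of all windows. A match of letters describes a sequence and is no evidence of binding, and the 2 motifs may share bases. The 250 bases before the start are given for the genes that led the comparisons below, with each CHR and CCAAT match in capitals. Prr11, on the minus strand at chr11:87108715-87108964, and Aspm, on the plus strand at chr1:139454523-139454772, had the largest differences between LE+IFN-γ and SE+IFN-γ. Bub1, on the minus strand at chr2:127831860-127832109, led the genes that rose with LE in Model A. Ccnb2, on the minus strand at chr9:70421555-70421804, and Cdc20, on the minus strand at chr4:118437344-118437593, were among the 3 largest falls with SE in Model A.
Prr11: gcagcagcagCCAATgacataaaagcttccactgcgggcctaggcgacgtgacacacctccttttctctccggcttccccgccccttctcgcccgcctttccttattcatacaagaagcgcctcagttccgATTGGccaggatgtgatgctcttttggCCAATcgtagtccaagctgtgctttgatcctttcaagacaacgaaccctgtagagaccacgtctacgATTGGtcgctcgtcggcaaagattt
Aspm: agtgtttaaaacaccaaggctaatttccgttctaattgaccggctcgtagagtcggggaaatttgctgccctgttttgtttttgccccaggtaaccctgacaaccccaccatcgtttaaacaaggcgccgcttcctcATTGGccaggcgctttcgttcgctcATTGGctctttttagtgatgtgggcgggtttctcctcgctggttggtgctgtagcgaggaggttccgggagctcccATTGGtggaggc
Bub1: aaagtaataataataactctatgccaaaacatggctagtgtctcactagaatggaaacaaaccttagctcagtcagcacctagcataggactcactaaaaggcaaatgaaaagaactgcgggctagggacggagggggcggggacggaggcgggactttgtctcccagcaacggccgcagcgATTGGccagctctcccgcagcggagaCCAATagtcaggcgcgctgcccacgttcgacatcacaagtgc
Ccnb2: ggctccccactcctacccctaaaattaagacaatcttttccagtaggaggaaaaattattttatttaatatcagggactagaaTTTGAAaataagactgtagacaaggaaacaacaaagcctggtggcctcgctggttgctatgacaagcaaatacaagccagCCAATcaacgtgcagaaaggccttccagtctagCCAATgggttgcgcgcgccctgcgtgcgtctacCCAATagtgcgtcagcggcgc
Cdc20: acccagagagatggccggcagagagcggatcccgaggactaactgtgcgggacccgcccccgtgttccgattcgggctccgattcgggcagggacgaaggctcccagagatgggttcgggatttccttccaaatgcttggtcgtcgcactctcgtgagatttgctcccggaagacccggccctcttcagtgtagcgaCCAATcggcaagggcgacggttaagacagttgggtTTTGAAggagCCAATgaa

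The Ccnb2 sequence shows 3 CCAAT matches and 1 CHR upstream of the start, Cdc20 shows 2 and 1, and Prr11 shows 4 CCAAT matches without an upstream CHR. In Prr11 and Aspm the CHR letters lay just after the start, 3 and 6 bases downstream, and are not printed. Bub1 held 2 CCAAT matches and no TTTGAA in its window.

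The libraries held 16498562 to 26929356 counted reads, of which the 42 genes took between 0.122% and 0.359%. The labels held up against 25 known IFN-γ targets, whose mean log2(CPM + 1) was 6.49 to 6.92 in the 12 libraries labelled with IFN-γ and 2.51 to 2.78 in the other 12 (CPM, read counts scaled to a common library size with TMM factors over the 24 libraries). Macrophage markers (Csf1r, Lyz2, Tyrobp and others) summed to between 7398 and 14220 CPM, whereas 4 fibroblast genes summed to between 0.13 and 1.84 CPM and T cell, B cell and epithelial markers each to at most 0.714 CPM. The macrophage sum was 7398 to 9834 CPM with IFN-γ and 10260 to 14220 CPM without it, and the fibroblast sum, with 1 of its 4 genes (Pdgfra) past the filter, was 1.10 to 1.18 CPM in LE+IFN-γ, 0.79 to 1.84 CPM in SE+IFN-γ and at most 0.87 CPM elsewhere. Their part in the results was not tested. A second set of 24 libraries, marked HLA in the labels, was not used for the results because IFN-γ targets went against the label in 12 of its libraries. In the deposited table each of its 8 groups also directly follows a letter-marked group of another label, so whether its labels hold is in doubt. Groups that follow a letter-marked group without IFN-γ had targets at 2.33 to 2.67, and those that follow one with IFN-γ at 6.32 to 7.15. Whether the column order gives the right labels was not tested. The study calls its libraries of this line biological replicates from independent experiments, without saying which libraries shared an experiment or a culture. The 3 letter-marked libraries of a group may thus come from 1 experiment, and p-values measure only the spread between these libraries. Since these are bulk libraries, more cells in G2 or M phase and more mitotic RNA per cell cannot be told apart.

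Mitotic transcripts were lowest with a peptide alone, intermediate in PBS cells, and highest when LE was combined with IFN-γ. Summed over the 42 genes, the level was 1230 to 1412 CPM in the SE libraries, 1439 to 1533 in LE, 1432 to 1612 in PE and 1624 to 1922 in PBS. With IFN-γ it was 1672 to 1876 CPM together with SE, 1929 to 2288 together with PE, 1841 to 2674 with IFN-γ alone and 3111 to 3601 together with LE. The LE+IFN-γ libraries thus stood above all 21 others and the SE libraries below all 21 others, while LE overlapped PE, PBS overlapped SE+IFN-γ, and IFN-γ overlapped PBS, SE+IFN-γ and PE+IFN-γ. By group means, 36 of the 42 genes were highest in LE+IFN-γ, 4 in IFN-γ alone and 2 in PE+IFN-γ, and 33 were lowest in SE. Among the IFN-γ libraries, replicate 2 stood apart at 1841 CPM, against 2545 and 2674 in replicates 1 and 3. Results that rest on this group are given with and without it where it matters.

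**Figure D1:**
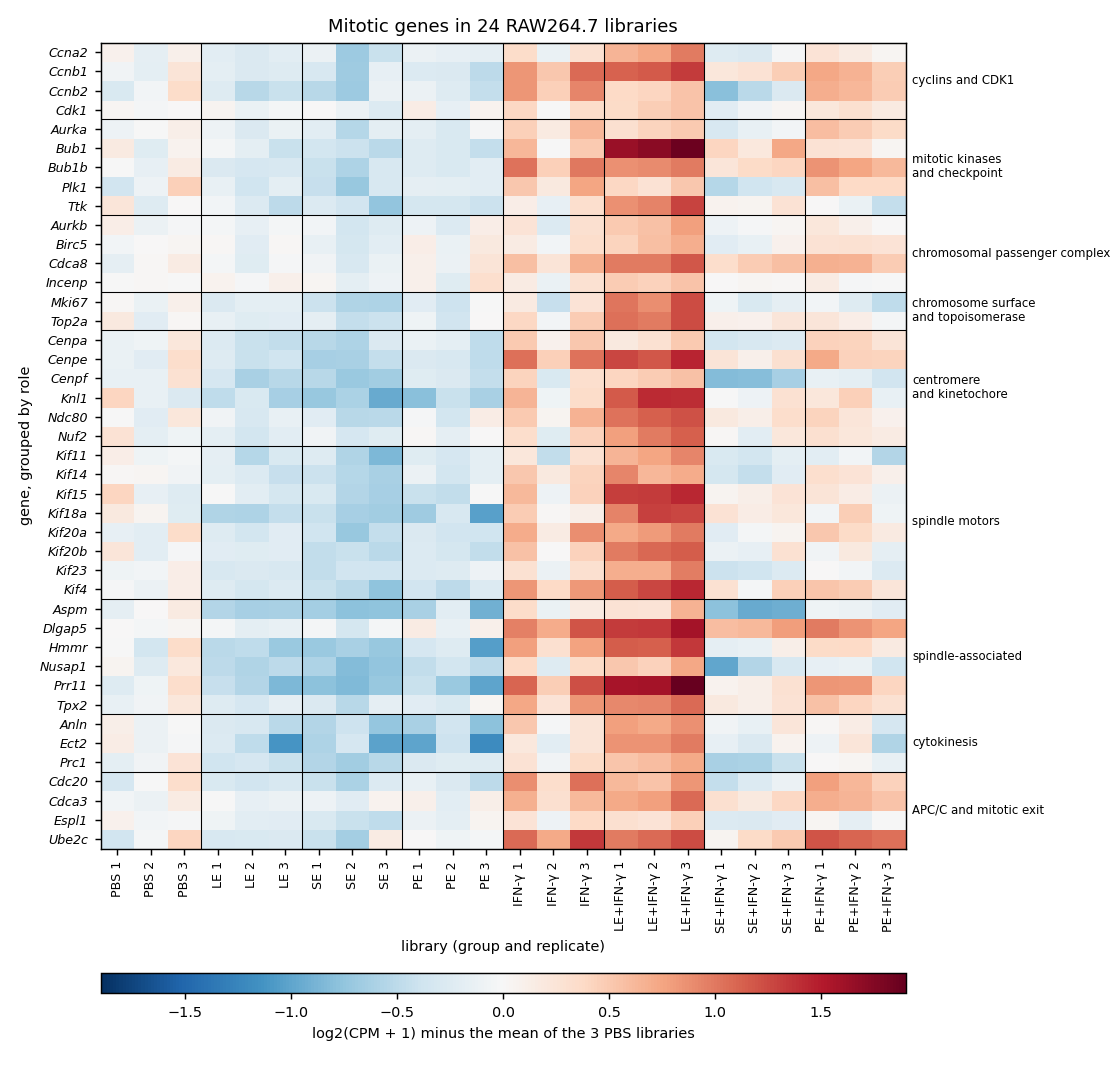
Level of each of the 42 mitotic genes (rows, grouped by role) in the 24 letter-marked libraries (columns), as log2(CPM + 1) minus the mean of the 3 PBS libraries, with red above and blue below PBS. The LE+IFN-γ columns are the most uniformly red, the SE columns are mostly blue, and IFN-γ replicate 2 is paler than the other 2 IFN-γ libraries.

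**Figure D2:**
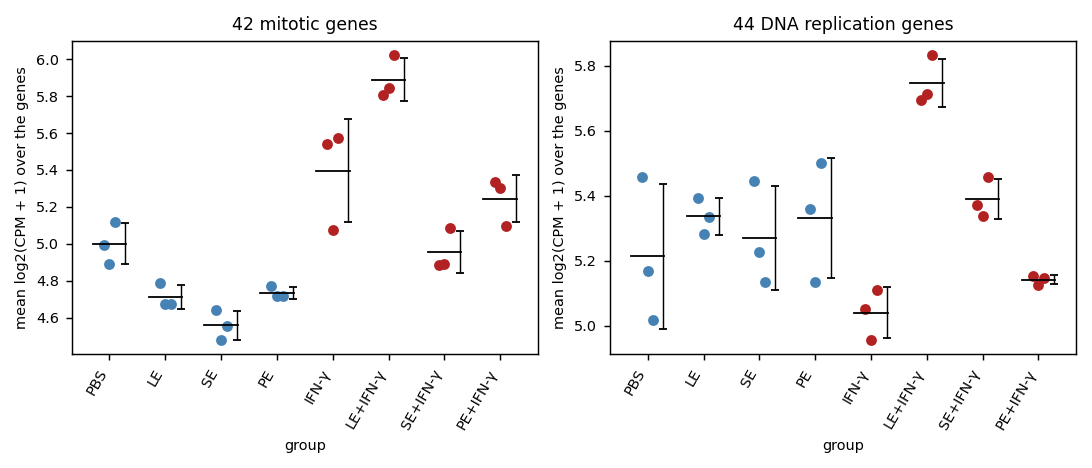
Mean log2(CPM + 1) over the 42 mitotic genes (left) and over 44 DNA replication genes (right) in each library, with blue points for groups without and red points for groups with IFN-γ. Horizontal lines are group means and bars are SD over 3 libraries; the mitotic level with IFN-γ alone exceeds the PBS mean while the replication level lies under it, and LE+IFN-γ is highest in both panels.

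The first question was what IFN-γ alone did. IFN-γ raised 12 of the 42 genes and lowered none (edgeR's quasi-likelihood test, Benjamini-Hochberg adjusted p below 0.05 and fold change above 1.5, the call rule used throughout), when 18.1% of all 12242 genes tested were called and 9.79% were called higher. All 42 estimates were positive, with a median log2 fold change of 0.34 against -0.01 over all genes. The 3 largest rises were those of Ube2c (log2 fold change 1.05 ± 0.18 SE, adjusted p = 0.000793), Prr11 (0.99 ± 0.20, adjusted p = 0.00194), whose product acts in spindle and chromosome organisation, and Dlgap5 (0.98 ± 0.11, adjusted p = 4.12e-05), a spindle assembly factor, all by edgeR. Ube2c was at 41.6, 52.7 and 71.9 CPM in PBS and at 116, 89.9 and 138 CPM with IFN-γ. The 2 groups did not overlap for Ube2c, and this held for 14 of the 42 genes, all in the direction of IFN-γ, whereas 25.6% of all genes lay entirely above PBS. The other genes called were the checkpoint and kinetochore genes Bub1b and Cenpe, the cyclins Ccnb1 and Ccnb2, the APC/C activator Cdc20, the motors Kif4 and Kif20a, and the spindle proteins Tpx2 and Hmmr. Mki67 (0.03), Kif11 (0.05), Ect2 (0.09) and Ttk (0.10) were near 0 on the log2 scale. The count was 16 without IFN-γ replicate 2 and 9 without replicate 1 or without replicate 3 of that group.

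A peptide without IFN-γ gave estimates on the other side of 0. SE lowered 12 of the 42 genes and raised none, with 1.92% of all 12420 genes called and 1.25% called lower, and PE lowered 6 and raised none, with 3.13% of all genes called and 2.48% called lower. LE gave no call in either direction (0.0242% of all genes were called), by edgeR and by DESeq2, although 41 of 42 estimates were negative and 24 genes had an unadjusted p below 0.05. The median log2 fold change of the 42 genes was -0.48 for SE, -0.31 for LE and -0.27 for PE, against medians between -0.01 and 0 over all genes. These 3 comparisons share their PBS libraries.

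The genes that fell most with SE were Knl1, the kinetochore scaffold (log2 fold change -0.91 ± 0.20 SE, edgeR adjusted p = 0.0142), Prr11 (-0.87 ± 0.18, adjusted p = 0.0113) and Aspm, a spindle pole protein (-0.82 ± 0.17, adjusted p = 0.0115). Aspm was at 11.5, 13.2 and 14.8 CPM in PBS and at 7.98, 7.24 and 7.30 CPM in SE, with no overlap. The other falls with SE were in Nusap1, Hmmr, Kif18a, Cenpf, Prc1, Cenpe, Kif4, Kif14 and Anln. With PE the genes called lower were Ect2 (-0.91), Kif18a (-0.84), Prr11 (-0.78), Knl1 (-0.72), Anln (-0.61) and Aspm (-0.60). Ect2, an activator of RhoA in cytokinesis, was at 12.7, 10.6 and 11.3 CPM in PBS and at 5.24, 8.56 and 4.48 CPM in PE, so that the groups did not overlap although the PE libraries spread widely. The 3 SE libraries lay under the 3 PBS libraries for 29 of the 42 genes (17.5% of all genes did so), the LE libraries for 25 (11.8%) and the PE libraries for 20 (16.2%). The counts moved with the processing. With offsets for transcript length and GC content, SE gave 5 calls (Ccnb2, Plk1, Nusap1, Prr11 and Cdc20) and PE none, and without PBS replicate 3 the SE count was 7 and the PE count 3. The PE count was 0 without PE replicate 3.

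Model A asked what each peptide added to IFN-γ. LE raised 17 of the 42 genes above IFN-γ alone and lowered none, when 15.5% of all 12720 genes were called and 9.58% called higher. The median log2 fold change was 0.45, against -0.01 over all genes. The rises were largest in the checkpoint kinase gene Bub1 (log2 fold change 1.37 ± 0.14 SE, edgeR adjusted p = 2.78e-07), in Kif18a (1.08 ± 0.17, adjusted p = 3.77e-05), a kinesin that dampens chromosome movement, and in Knl1 (1.06 ± 0.16, adjusted p = 3.54e-05). Bub1 was at 35.0, 22.01 and 31.6 CPM with IFN-γ and at 71.4, 74.6 and 83.5 CPM with LE and IFN-γ. Knl1 was at 15.7, 9.17 and 12.6 CPM and at 23.0, 27.8 and 27.5 CPM. All 3 LE+IFN-γ libraries were above all 3 IFN-γ libraries for both genes, as they were for 30 of the 42 (28.8% of all genes lay entirely above).

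By role, 6 of 8 spindle motors rose with LE in Model A (Kif18a, Kif15, Kif20b, Kif11, Kif23 and Kif4), as did 3 of 6 kinetochore genes (Knl1, Nuf2 and Ndc80), both genes of chromosome surface and topology (Mki67 and Top2a), 2 of 5 kinases (Bub1 and Ttk), 2 of 6 spindle-associated genes (Prr11 and Hmmr), 1 of 3 cytokinesis genes (Ect2) and 1 of 4 cyclin and CDK genes (Ccna2). Mki67, which encodes the surface coat of mitotic chromosomes and the Ki-67 antigen, was at 241, 159 and 258 CPM with IFN-γ and at 435, 396 and 509 CPM with LE and IFN-γ (1.03 ± 0.14, edgeR adjusted p = 7.82e-06). None of the 4 chromosomal passenger genes and none of the 4 APC/C and exit genes passed. Among the genes not called, picked here by their values, log2 fold changes were 0.03 for Ube2c, -0.02 for Aurka, -0.05 for Cenpa, -0.11 for Plk1, -0.12 for Cdc20 and -0.32 for Ccnb2. Genes nearest to the fold threshold were Hmmr (0.60), called, and Cdca8 (0.55), not called. Without IFN-γ replicate 2 the count was 10 in place of 17, and with offsets for length and GC content it was 8 (Bub1, Ttk, Kif15, Mki67, Kif18a, Knl1, Ect2 and, in addition, Aurkb).

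SE added to IFN-γ lowered 15 of the 42 genes and raised none, with 7.39% of all genes called and 2.38% called lower, and the median log2 fold change was -0.41. Ccnb2 fell most (-1.30 ± 0.12 SE, edgeR adjusted p = 2.63e-07), from 73.8, 56.0 and 77.9 CPM with IFN-γ to 23.1, 28.3 and 33.4 CPM with SE and IFN-γ, which is below the lowest PBS library in 2 of 3 libraries. Aspm fell by 1.14 on the log2 scale (± 0.14, adjusted p = 5.11e-06) and Cdc20 by 1.07 (± 0.14, adjusted p = 1.19e-05), again by edgeR. Cdc20 was at 103, 70.0 and 114 CPM with IFN-γ and at 40.1, 45.8 and 51.0 CPM with SE and IFN-γ, with no overlap. The same separation, with SE+IFN-γ below IFN-γ, was seen for 19 of the 42 genes (20.9% of all genes).

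By role, the SE falls in Model A covered 4 of 6 spindle-associated genes (Aspm, Prr11, Nusap1 and Hmmr), 3 of 6 kinetochore genes (Cenpf, Cenpa and Cenpe), 2 of 8 motors (Kif14 and Kif20a), 2 of 5 kinases (Plk1 and Aurka), 2 of 4 APC/C and exit genes (Cdc20 and Ube2c), Ccnb2 among the cyclins and Prc1 in cytokinesis. Neither Mki67 (-0.21) nor Top2a (-0.16) passed. Several of the genes that rose most with LE had values close to 0 with SE, such as Bub1 (0.07), Ttk (0.03) and Kif18a (-0.02), whereas Prr11 was 0.76 with LE and -0.84 with SE, and Hmmr 0.60 and -0.72. The same IFN-γ libraries stand under both comparisons. The SE count was 15 with the length and GC offsets and, with each library left out, 12 (without IFN-γ replicate 3) to 21 (without IFN-γ replicate 2). PE added to IFN-γ gave no call by edgeR or DESeq2 (0.629% of all genes were called); 11 genes had an unadjusted p below 0.05, the median was -0.19, and without IFN-γ replicate 2 the count was 2 genes lower.

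**Figure D3:**
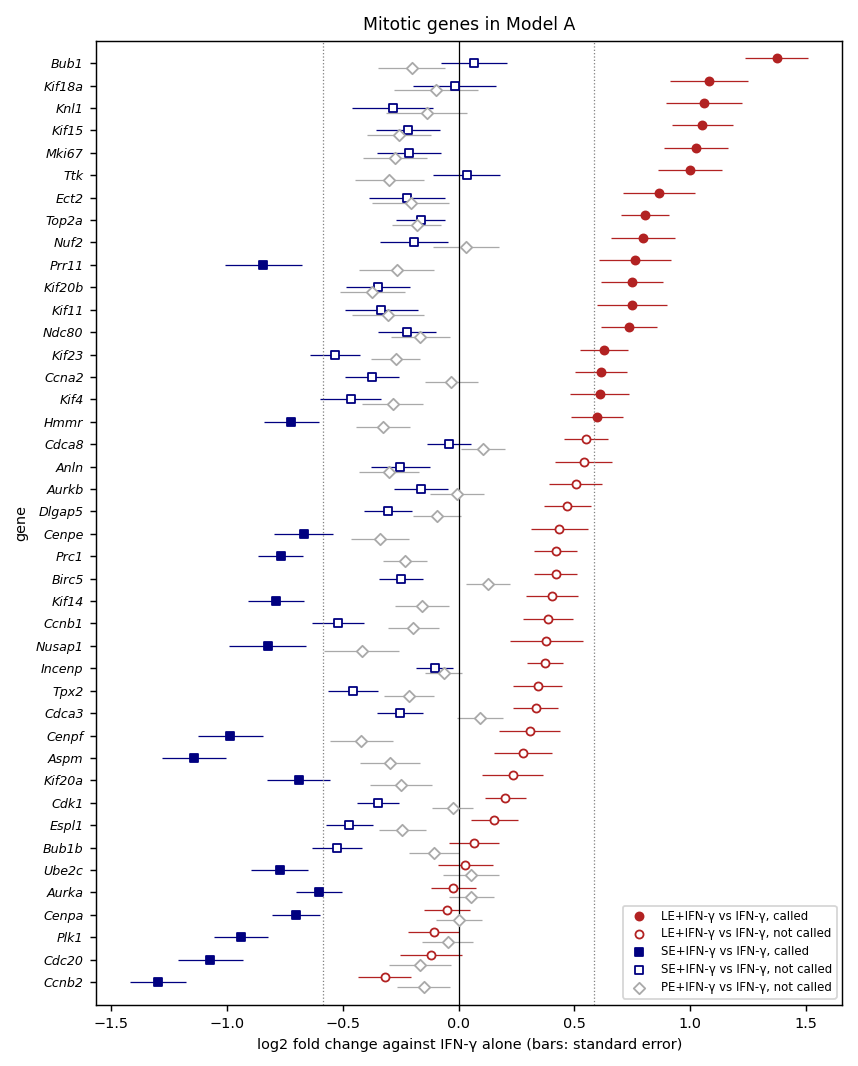
Log2 fold change of each of the 42 genes against IFN-γ alone for LE+IFN-γ (red circles), SE+IFN-γ (blue squares) and PE+IFN-γ (grey diamonds), ordered by the LE value, with filled symbols for called genes, bars for standard errors and dotted lines at a fold change of 1.5. The 17 filled red symbols are at the top, and the 15 filled blue ones lie mostly in the lower part, where Ccnb2, Cdc20 and Plk1 have LE values at or under 0.

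**Figure D4:**
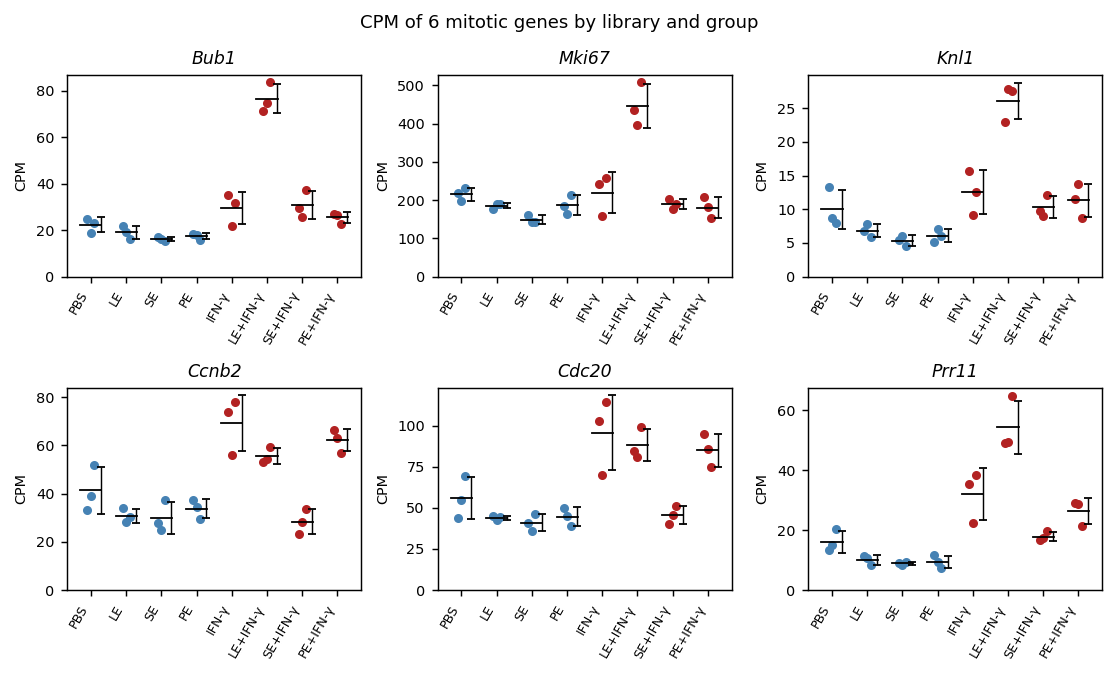
CPM of Bub1, Mki67, Knl1, Ccnb2, Cdc20 and Prr11 in each of the 24 libraries by group, with blue points without and red points with IFN-γ, lines for group means and bars for SD over 3 libraries. Bub1, Mki67 and Knl1 stand out in LE+IFN-γ, Ccnb2 and Cdc20 are lower in SE+IFN-γ than in the other groups with IFN-γ, and Prr11 shows both.

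Compared directly, cells given LE and IFN-γ had more of the mitotic transcripts than cells given SE and IFN-γ for 39 of the 42 genes, with none lower, when 4.93% of all genes were called and 3.31% called higher. All 42 had an adjusted p below 0.05, and all 42 had every LE+IFN-γ library above every SE+IFN-γ library (25.4% of all genes did). The 3 genes not called fell short on size alone, at log2 fold changes of 0.58 (Aurka), 0.55 (Cdk1) and 0.48 (Incenp). The median was 0.97, against -0.01 over all genes. Prr11 differed most (1.61 ± 0.16 SE, edgeR adjusted p = 5.99e-06), at 48.9, 49.4 and 64.6 CPM with LE and IFN-γ against 16.7, 17.3 and 19.6 CPM with SE and IFN-γ. Aspm (1.42 ± 0.13, adjusted p = 3.89e-06) was at 16.0, 15.9 and 21.2 CPM against 7.18, 6.22 and 6.43 CPM, and Knl1 followed (1.34 ± 0.17, adjusted p = 2.65e-05), both by edgeR. The IFN-γ-only libraries entered this fit through its filter, scaling and spread, and without their replicate 2, an alternative chosen after seeing the data, the count was 38. The count was 39 with the length and GC offsets (median 0.84) and ranged from 33 to 41 when each library was left out in turn.

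LE+IFN-γ was above PE+IFN-γ for 22 of the 42 genes and below it for none, with 21.6% of all genes called and 12.7% called higher, a median of 0.65, and Bub1 in the lead (1.58 ± 0.14 SE, edgeR adjusted p = 4.9e-08). For Bub1 the PE+IFN-γ libraries were at 27.1, 26.7 and 22.9 CPM, under the lowest LE+IFN-γ library at 71.4 CPM. Of the genes not called, Ube2c (-0.02), Cenpa (-0.05), Plk1 (-0.06), Aurka (-0.08) and Ccnb2 (-0.17) had estimates below 0. SE+IFN-γ was below PE+IFN-γ for 8 genes and above it for none, with 7.59% of all genes called and 2.34% called lower. These were Ccnb2 (-1.15 ± 0.12, edgeR adjusted p = 1.5e-06), Cdc20, Plk1, Aspm, Ube2c, Cenpa, Aurka and Kif14, in order of size. Ccnb2 was at 66.3, 63.2 and 57.0 CPM with PE and IFN-γ, more than in any SE+IFN-γ library.

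Model B asked what IFN-γ added to each peptide. Combined with LE, IFN-γ raised 39 of the 42 genes and lowered none, with 35.1% of all 12947 genes called and 19.1% called higher, and the median log2 fold change was 1.17. Prr11 rose most (2.42 ± 0.15 SE, edgeR adjusted p = 1.71e-11), from 11.5, 10.5 and 8.30 CPM to 48.9, 49.4 and 64.6 CPM, followed by Kif18a (2.05 ± 0.20, adjusted p = 1.76e-08) and Bub1 (2.00 ± 0.12, adjusted p = 1.15e-11). Only Cdk1 (0.50), Espl1 (0.53) and Incenp (0.44) were not called. With PE the count was 19 higher and none lower (21% of all genes called, 12.1% called higher, median 0.55), led by Prr11 (1.48 ± 0.15, edgeR adjusted p = 8.04e-08) and Ube2c (1.18 ± 0.14, adjusted p = 3.37e-07). With SE it was 15 higher and none lower (26.3% of all genes called, 15.1% called higher, median 0.41), led by Prr11 (1.01 ± 0.16, edgeR adjusted p = 1.42e-05), Kif18a (0.98) and Knl1 (0.94), and 8 with the length and GC offsets.

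All 42 genes were higher in every LE+IFN-γ library than in every LE library (36.5% of all genes were), 28 in PE+IFN-γ over PE (26.2%) and 23 in SE+IFN-γ over SE (31.8%). Several genes, picked here by their values, had estimates near or below 0 with SE in Model B. Ccnb2 was -0.09, Aspm -0.19, Plk1 0.06 and Cdc20 0.15 with SE, none of them called, whereas with PE Ccnb2 was 0.88, Plk1 0.66 and Cdc20 0.93, all called. Bub1b, Ccnb1, Cenpe, Dlgap5, Hmmr, Kif4, Kif18a, Knl1 and Prr11 passed in all 3 settings.

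The difference itself was tested as an interaction, that is, the IFN-γ response with a peptide minus the IFN-γ response without one. LE enlarged the response of 29 of the 42 genes and reduced none, with 18.9% of all 13096 genes called and 11.3% called higher. All 42 estimates were positive, with a median of 0.82 against -0.02 over all genes. Kif18a (1.80 ± 0.29 SE, edgeR adjusted p = 4.37e-05), Knl1 (1.61 ± 0.28, adjusted p = 8.73e-05) and Bub1 (1.60 ± 0.21, adjusted p = 2.7e-06) led. By role this covered 7 of 8 motors, 6 of 6 spindle-associated genes, 5 of 6 kinetochore genes, 3 of 3 cytokinesis genes, both Mki67 and Top2a, 2 of 4 passenger genes (Aurkb and Cdca8), 2 of 4 cyclins (Ccna2 and Ccnb1), 2 of 5 kinases (Bub1 and Ttk) and 0 of 4 APC/C and exit genes. The count was 21 with the length and GC offsets and 24 to 30 with each library left out.

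SE changed the IFN-γ response of 2 genes, both towards a smaller response, with 7.96% of all genes called and 2.89% called lower. They were Ccnb2 (-0.83 ± 0.22 SE, edgeR adjusted p = 0.0103) and Cdc20 (-0.62 ± 0.22, adjusted p = 0.0484), and the median over the 42 genes was -0.04. PE gave no call by edgeR or DESeq2 (0% of all genes were called), with a median of 0.09 and 2 genes at an unadjusted p below 0.05. The SE count was 1 to 4 when single libraries were left out, and without IFN-γ replicate 1 it was 4, of which 3 were higher.

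Other genes of the division cycle were read from lists chosen for their roles, to be set against the shares of all genes called, which in Model A were 9.58% higher with LE, 5.01% higher with SE and 2.38% lower with SE, and between LE+IFN-γ and SE+IFN-γ 3.31% higher. Since earlier results of these data were known when the lists were chosen, their counts are not independent of those results. Of 39 further kinetochore and centromere genes, 16 rose with LE in Model A and none fell, among them Kntc1 (0.99) and Spc25 (0.73), and 1 fell with SE, the microtubule depolymerase Kif2c (-0.64). Of 46 further spindle, centrosome and cytokinesis genes, 17 rose with LE and none fell, and with SE 1 rose and 2 fell. Of 19 condensin and cohesin genes, 9 rose with LE, including Smc4 (1.12) and Ncapg (1.10), and none changed with SE. Between LE+IFN-γ and SE+IFN-γ the counts were 22 of 39, 21 of 46 and 10 of 19, all higher with LE. Of 21 regulators of the mitotic program, 9 rose with LE in Model A, including Foxm1 (0.83), Mybl2 (0.80) and Lin54 (1.22), against 1 with SE (E2f7, 0.66). Counts for the lists in this and the next paragraph come from the main fits. They were not recomputed with the length and GC offsets or with libraries left out.

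Genes of DNA replication were read beside the mitotic genes, with no test between the lists. Of 44 replication and S phase genes, IFN-γ alone lowered 8 and raised none (8.28% of all genes were called lower), the largest fall being that of the helicase subunit gene Mcm6 (-1.46), while it raised 12 of the 42 mitotic genes. In Model A LE raised 30 of the 44 (median 0.83), among them Cdc7 (1.55), Lig1 (1.47) and Pola1 (1.30), and SE raised 10 of the 44 and lowered none (median 0.41, with 5.01% of all genes called higher), with Lig1 at 1.01, Mcm6 at 0.88 and Pcna at 0.66. SE thus raised replication genes in the same libraries in which it lowered 15 mitotic genes. LE+IFN-γ was above SE+IFN-γ for 9 of the 44. The G1/S cyclin gene Ccne2 fell with IFN-γ (-1.59) and rose in Model A with LE (1.90) and with SE, there 2.84-fold. Cdc25c, a phosphatase that activates CDK1, rose with IFN-γ (0.80) and fell with SE in Model A (-0.80), and the securin gene Pttg1 did likewise (0.87 and -0.70). Cdkn1a, which encodes the inhibitor p21, was not called in any of these (0.06 with IFN-γ, and -0.23 with LE and -0.12 with SE in Model A). It comes from a list of 18 CDK inhibitors and p53 targets, whose other genes are not reported here. Of 18 APC/C subunits and regulators tested, 2 rose with LE and none fell, a share close to that of all genes, and 1 (Pttg1) fell with SE.

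Fold changes in several comparisons moved with the length and GC content of transcripts over all genes, and also among the 42. For LE+IFN-γ against SE+IFN-γ, Spearman's rho over all genes was 0.36 with the length of the longest annotated transcript and -0.47 with its GC content, and over the 42 genes it was 0.47 and -0.72. For LE+IFN-γ against IFN-γ the GC value was -0.28 over all genes and -0.76 over the 42, for SE+IFN-γ against IFN-γ it was 0.06 and -0.25, and for the LE interaction it was -0.39 and -0.88. For a peptide alone against PBS the signs were the other way, negative with length and positive with GC content. Over all genes the 2 values were -0.48 and 0.38 for SE, -0.49 and 0.42 for PE, and -0.40 and 0.45 for LE. Over the 42 genes they were -0.49 and 0.58 for SE, -0.31 and 0.58 for PE, and -0.25 and 0.44 for LE. Genes that rose most with LE were AT-rich (Knl1 37.7% GC, Kif18a 38.2%, Bub1 41.0%), and those near 0 were richer in GC (Cdc20 55.6%, Plk1 56.0%, Ube2c 55.5%). Points of such a correlation share their libraries and are not independent. The part of length and GC content in these results was tested only through the offsets, under which the count of SE falls in Model A was 15 and that of LE rises was 8. With the offsets, the medians against PBS were -0.36 for SE, -0.21 for LE and -0.15 for PE.

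**Figure D5:**
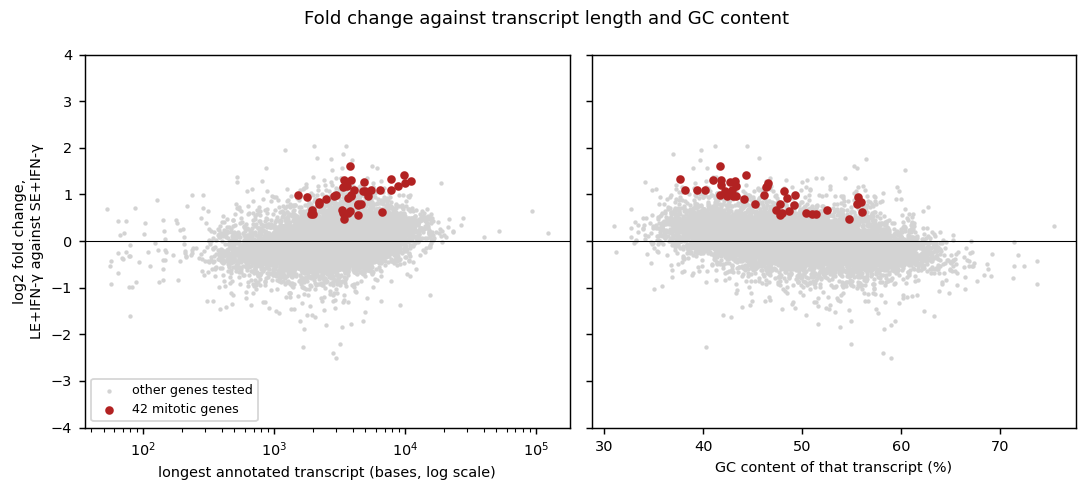
Log2 fold change between LE+IFN-γ and SE+IFN-γ against the length of the longest annotated transcript (left, log axis) and its GC content (right) for 12583 genes, with the 42 mitotic genes in red over all others in grey. The red points lie above 0 at every length and GC content they cover, and highest at low GC content.

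Of the 42 genes, 9 overlap a protein-coding gene on the opposite strand (Ccna2, Cdca8, Kif4, Kif18a, Kif20a, Nusap1, Prc1, Cdc20 and Ube2c). The library kit keeps strand, but whether counting used it is not given in the sources used here, so reads of these genes and of their partners could not be told apart with certainty.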

How the data were processed

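Poly(A) RNA of RAW264.7 cells was sequenced on the TruSeq protocol, and the authors aligned the reads to GRCm38.p5 and counted uniquely mapped reads per GENCODE gene with featureCounts. The deposited values are raw read counts per gene for 48 libraries in 1 table, and per the labels DESeq2 1.16.1 in R 3.4.1 was used on them; whether counting used strand is not given in the sources used here. The table names genes by symbol, with 26 names turned into dates and 4 lines with a repeated name. Each column was matched to a sample through the letter or HLA mark in its label.

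Counts were tested in R 4.3.3 with edgeR 4.0.16 (quasi-likelihood test, TMM scaling, filterByExpr), with p-values adjusted over all genes tested by the Benjamini-Hochberg method. A gene was called at an adjusted p below 0.05 and a fold change above 1.5, the thresholds of the study. IFN-γ was set against PBS in a fit of those 2 groups, peptides against PBS in the 4 groups without IFN-γ, Model A and peptide against peptide in the 4 groups with IFN-γ, Model B in the 6 peptide groups, and interactions in all 8. CPM values were scaled by TMM over the 24 libraries. The standard error (SE after a log2 fold change) was the fold change divided by the root of its F statistic. Transcript length and GC content came from the longest GENCODE M21 transcript. Alternatives were DESeq2 1.42.0, RLE scaling, no filter, 1 fit of all groups, the replicate number as a block, offsets for length and GC content, each library left out, and the HLA-marked libraries. Leaving IFN-γ replicate 2 out of the fits between peptides was added after seeing the data. The procedure was tested on simulated data. Every gene named was a member with a fixed role, one of the 3 largest changes of a comparison, one near the fold threshold, or a gene of a list; genes singled out otherwise were chosen after their values were seen. The genes and lists were chosen with earlier results of these data known. No 2 letter-marked libraries of a group were alike within sampling noise. Depths of 16498562 to 26929356 counts per library limit the precision of genes with few reads.

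Same-numbered libraries were not paired: the correlation of their deviations from group means was -0.14 to 0.236, and none of the 13 comparisons of 2 groups had every correlation above 0.1. For the interactions only the peptide with IFN-γ and IFN-γ alone were checked.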

Additional observations from a re-analysis of the deposited data

Results flagged for a closer look

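The IFN-γ response of 29 of the 42 genes differed between cells with and without LE by the edgeR interaction test, each time towards a larger response (18.9% of all genes were called), with Kif18a (1.80), Knl1 (1.61) and Bub1 (1.60) in the lead on the log2 scale. With SE it differed for 2 genes, Ccnb2 (-0.83) and Cdc20 (-0.62), each time towards a smaller response, a share of the 42 that is under the 7.96% of all genes called, and leaving out single libraries brought the count to between 1 and 4.

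The HLA-marked libraries enter the results only as an alternative for 2 comparisons. In all of their groups other than PBS, the CPM summed over the 42 genes lay above that of the libraries labelled PBS, 1158 to 1612 CPM. Single genes could overlap: Mki67 was at 303, 341 and 280 CPM under the label LE+IFN-γ and at 304, 305 and 186 CPM under PBS. The sum was 4863 to 5334 CPM in the libraries labelled PE and 2750 to 4432 CPM in those labelled LE. The lowest library was at 1811 CPM for the label SE, 2063 for IFN-γ, 1966 for LE+IFN-γ, 1994 for SE+IFN-γ and 1933 for PE+IFN-γ, and the highest of these 5 groups was at 2966 CPM. The libraries labelled LE and PE also had high IFN-γ targets without IFN-γ in their label (mean log2(CPM + 1) from 6.85 to 7.15), and those labelled IFN-γ and SE+IFN-γ had low ones (2.33 to 2.46), so that 12 of 24 libraries went against their label. Each of the 8 groups directly follows a letter-marked group of another label in the deposited table, so these values belong to labels that are in doubt.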

How the results depend on the processing

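Of 212 recomputed counts of called genes, 191 were within 1.5 times the count reported, and of 212 recomputed medians 199 moved by less than 1 SD between replicates. Of 8904 recomputed values of single genes, 8539 kept their call or stayed without one, 208 lost a call with the sign kept and 126 gained one. The remaining 31 were called genes that changed sign, all of them in the HLA-marked libraries, whose labels are in doubt. Sign changes of genes without a call were not counted. DESeq2, RLE scaling and the replicate block moved none of the 16 counts by over 1.5 times, nor did 1 fit of all groups for the 13 counts other than the interactions. Leaving IFN-γ replicate 2 out of the fits between peptides, chosen after seeing the data, gave 38, 22 and 8 calls.

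With offsets for length and GC content the counts were 8 for LE+IFN-γ against IFN-γ, 8 for SE+IFN-γ against SE, 5 for SE against PBS and 0 for PE against PBS. With them the medians were 0.84 for LE+IFN-γ against SE+IFN-γ, 0.47 against PE+IFN-γ, 0.90 against LE, 0.22 for SE+IFN-γ against SE, 0.40 for PE+IFN-γ against PE, 0.58 for the LE interaction, -0.21 for LE against PBS, -0.36 for SE against PBS and -0.15 for PE against PBS. Without a filter LE against PBS gave 4 genes lower. The cause of these shifts was not tested beyond the offsets themselves.

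With each library left out, SE against PBS ranged from 7 (without PBS replicate 3) to 15 with medians of -0.57 to -0.37, PE against PBS from 0 to 7 with medians of -0.32 to -0.16, LE+IFN-γ against IFN-γ from 10 (without IFN-γ replicate 2) to 20, PE+IFN-γ against IFN-γ from 0 to 2 (without IFN-γ replicate 2) and the SE interaction from 1 to 4. The PE against PBS count was 0 without PE replicate 3, 1 without PE replicate 1, 2 without PBS replicate 1 and 3 without PBS replicate 3. The SE interaction gave 1 call without SE+IFN-γ replicate 1, SE replicate 1 or 3, IFN-γ replicate 3 or PBS replicate 1, and 4 without IFN-γ replicate 1 (3 of them higher) or PBS replicate 3.

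With the replicate number as a block, the counts were 12 for IFN-γ, 13 for SE, 6 for PE, 0 for LE, 17, 15 and 0 in Model A for LE, SE and PE, 39, 17 and 19 in Model B, 39, 22 and 9 between peptides and 29, 2 and 0 for the interactions. Every library correlated best with its own number in 4 of 13 comparisons of 2 groups, a hint from the data and not from the design.

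The labels of the HLA-marked libraries are in doubt, so the groups named next may not be those compared in the report. There, SE against PBS gave 0 calls and a median of 0.31, and LE+IFN-γ against PE+IFN-γ gave 0 calls and a median of -0.13. Called genes that changed sign there were, for SE against PBS, Cenpe 0.29, Cenpf 0.31, Knl1 0.37, Kif4 0.25, Kif14 0.43, Kif18a 0.25, Aspm 0.34, Nusap1 0.41, Hmmr 0.28, Prr11 0.40, Anln 0.27 and Prc1 0.49. For LE+IFN-γ against PE+IFN-γ they were Ccna2 -0.12, Mki67 -0.20, Top2a -0.16, Ttk -0.014, Cenpe -0.19, Cenpf -0.31, Knl1 -0.14, Ndc80 -0.15, Kif4 -0.16, Kif11 -0.075, Kif15 -0.033, Kif20b -0.11, Kif23 -0.19, Nusap1 -0.12, Hmmr -0.0028, Prr11 -0.24, Anln -0.075, Ect2 -0.20 and Prc1 -0.26.

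Genes at few CPM, such as Kif18a at 1.62 to 12.2 CPM, carry the largest errors.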

Other observations

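Levels of different genes can be set side by side only per transcript length. Per kilobase of the longest annotated transcript, the PBS mean was highest for Incenp (39.8 CPM per kilobase), which encodes the scaffold of the chromosomal passenger complex, followed by Cdc20 (31.2) and Ccnb2 (27.0), and lowest for Kif18a (0.678), Kif14 (1.09) and Knl1 (1.28). Incenp was also among the genes that moved least between groups, at 117 CPM in its lowest and 200.2 CPM in its highest library.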
